A study of Homo sapiens with 6 samples.

Results

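The 10 genes described here encode plasma membrane amino acid transporters: the cystine carrier SLC7A11, its heavy-chain partner SLC3A2, the large neutral amino acid carriers SLC7A5 and SLC7A8, the cationic carriers SLC7A1 and SLC7A2, the alanine-serine-cysteine carriers SLC1A4 and SLC1A5, and the sodium-coupled neutral carriers SLC38A1 and SLC38A2. They are 10 of the 60656 genes in the count table and were found there by Ensembl identifier. The genes were chosen by name with earlier results of this same contrast in view, SLC7A11 among them for its change with the drug, so their fold changes are given as a description and carry no test.

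Cells take up amino acids through carriers that differ in the residues they accept and in what drives the transport. SLC7A11, SLC7A5 and SLC7A8 are light chains that carry the substrate and need the heavy chain SLC3A2 (CD98) to reach the cell surface, whereas the cationic, SLC1 and SLC38 carriers work without it. Several of these genes are known targets of ATF4, the transcription factor that is translated when amino acids are short or the endoplasmic reticulum is stressed. SLC7A11 also responds to NFE2L2 (NRF2), and the cystine it imports is used to make glutathione.

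RNA was measured in parental ZR-75-1 cells, an oestrogen receptor-positive human breast cancer line, as 3 libraries grown with DMSO, the solvent control, and 3 grown with 500 nM abemaciclib, an inhibitor of the cell cycle kinases CDK4 and CDK6, each for 4 days. All 6 libraries came from the parental line in the same medium, and the RB1 knockout line was not analysed here. The study calls the replicates biological, from an experiment performed once, and nothing in the labels says more about how the cultures were separated, so the errors given measure the spread between these libraries. Total counts ran from 3317860 to 4013156 a library, so that 3 counts correspond to between 0.740 and 0.909 CPM (counts per 1000000 counts). The third abemaciclib library stood apart from the other two, with a chi-square per degree of freedom of 6.98 and 7.41 against them, where they gave 3.47 between them and the DMSO pairs 2.83 to 4.21. Its mitochondrial share of counts was 18.3%, against 15.6% to 16.6% in the other libraries. The luminal markers ESR1, GATA3, FOXA1, EPCAM, KRT8, KRT18 and KRT19 were all above 100 CPM in both groups. KRT5, KRT14, TP63, VIM, COL1A2, PDGFRB and PTPRC had no counts in any library, CD68 averaged 0.099 CPM with DMSO and had none with abemaciclib, and COL1A1 was at 13.1 CPM with DMSO and 12.5 CPM with abemaciclib.

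Levels are given as CPM scaled by edgeR's trimmed mean of M-values. The libraries were made from the 3′ ends of transcripts, where each transcript yields a read or few regardless of its length. Levels are therefore set side by side between genes without a correction for length. Other differences between genes in how well their ends are captured and counted were not measured. A log2 fold change is abemaciclib minus DMSO, from edgeR's quasi-likelihood fit over the 10863 genes with enough counts, and its error is the standard error (SE) of that fit. A gene is called higher or lower when its Benjamini-Hochberg adjusted p over all those genes is under 0.05. In these bulk libraries, fewer cells carrying a transcript and less of it in each cell cannot be told apart.

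SLC7A11, the light chain that imports cystine in exchange for glutamate, had the most negative log2 fold change of the 9 transporters tested, the change for which it was chosen. It stood at 27.6, 16.0 and 20.6 CPM in the 3 DMSO libraries, from 95, 54 and 68 counts. In the 3 abemaciclib libraries it stood at 2.12, 0.493 and 2.43 CPM, from 7, 2 and 9 counts. Every abemaciclib library was therefore below every DMSO library, and the second abemaciclib library was below the level of 3 counts. The group means were 21.4 ± 5.80 CPM (SD, n = 3) and 1.68 ± 1.04 CPM (SD, n = 3), a 12.7-fold ratio, and the log2 fold change was -3.68 (SE 0.41). Of the 10863 genes tested, 52 had a more negative log2 fold change. SLC7A11 passed the filter on low counts through its DMSO libraries. Its antisense gene SLC7A11-AS1 had no counts in any library.

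SLC3A2, the heavy chain, was at 133.7, 126.8 and 138.4 CPM with DMSO and at 63.5, 70.3 and 66.7 CPM with abemaciclib. The groups did not overlap, and both were tight, with means of 133.0 ± 5.82 CPM and 66.9 ± 3.39 CPM (SD, n = 3 each). The log2 fold change was -0.99 (SE 0.12), smaller in size than that of SLC7A11.

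SLC7A5 (LAT1), which exchanges intracellular glutamine for leucine and other large neutral amino acids, was at 78.6, 69.5 and 73.9 CPM with DMSO. With abemaciclib it was at 14.82, 14.31 and 12.97 CPM, again with no overlap. The means were 74.0 ± 4.55 CPM and 14.03 ± 0.957 CPM (SD, n = 3 each), a 5.27-fold ratio, and the log2 fold change was -2.40 (SE 0.17), with 151 genes more negative. Both pseudogenes of SLC7A5 in the table, SLC7A5P1 and SLC7A5P2, had no counts.

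SLC7A8 (LAT2), which carries a similar range of neutral amino acids and also pairs with SLC3A2, went the other way from SLC7A11 and SLC7A5. It had 3, 6 and 6 counts with DMSO and 8, 29 and 13 counts with abemaciclib, or 0.870, 1.78 and 1.82 CPM against 2.42, 7.15 and 3.51 CPM. All 3 abemaciclib libraries were above all 3 DMSO libraries, but these counts were too few for the gene to enter the fit. The means were 1.49 ± 0.537 CPM and 4.36 ± 2.48 CPM (SD, n = 3 each), with the second abemaciclib library well above the other two. Of the last 500 exon bases of SLC7A8, where 3′ reads fall, 277 are shared in GENCODE v44 with a long non-coding RNA gene on the same strand. Whether this overlap bears on the counts of SLC7A8 was not tested. None of the other 9 transporters overlapped another gene there.

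Set against the heavy chain within each library, the light chains moved apart. SLC7A11 had 20.6, 12.6 and 14.9 counts per 100 counts of SLC3A2 in the DMSO libraries and 3.33, 0.702 and 3.64 in the abemaciclib libraries. SLC7A5 had 58.8, 54.8 and 53.4 per 100 with DMSO and 23.3, 20.4 and 19.4 with abemaciclib. SLC7A8 had 0.651, 1.41 and 1.31 per 100 with DMSO and 3.81, 10.2 and 5.26 with abemaciclib. Thus SLC7A11 and SLC7A5 were lower relative to their partner in every abemaciclib library and SLC7A8 was higher, each without overlap. SLC3A2 itself was lower with abemaciclib, so a gene of unchanged CPM rises on this scale. The share of all genes that part from SLC3A2 in this way was not computed. The values of SLC7A8 rest on 3, 6 and 6 counts with DMSO.

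**Figure D1:**
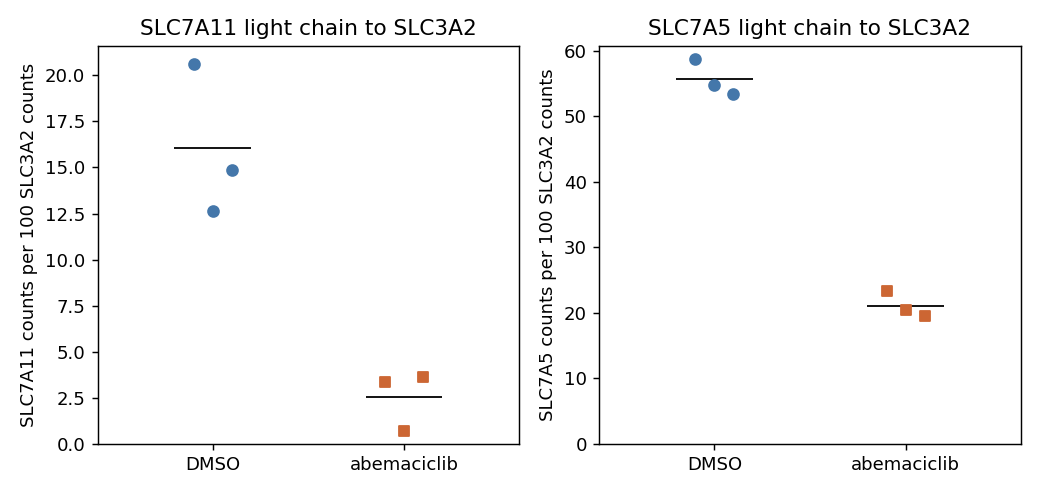
Counts of the light chains SLC7A11 (left) and SLC7A5 (right) per 100 counts of the heavy chain SLC3A2 in each library (points, 3 per group; linear axes from 0; horizontal lines are group means). SLC7A5 lies between 53.4 and 58.8 with DMSO and between 19.4 and 23.3 with abemaciclib, and SLC7A11 is at or above 12.6 in the DMSO libraries and at or below 3.64 in the abemaciclib libraries.

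The cationic carriers differed in opposite directions. SLC7A1 (CAT1), the widely expressed importer of arginine and lysine, was at 126.8, 115.0 and 106.9 CPM with DMSO and at 62.6, 57.2 and 56.2 CPM with abemaciclib. The means were 116.2 ± 9.97 CPM and 58.7 ± 3.45 CPM (SD, n = 3 each), and the log2 fold change of -0.99 (SE 0.13) matched that of SLC3A2. SLC7A2 (CAT2), a carrier of the same residues, was at 86.1, 91.8 and 104.8 CPM with DMSO and at 144.6, 150.7 and 128.9 CPM with abemaciclib. It was the single transporter called higher, with means of 94.2 ± 9.57 CPM and 141.4 ± 11.3 CPM (SD, n = 3 each) and a log2 fold change of 0.59 (SE 0.12). SLC7A1 thus had the higher CPM of the cationic pair with DMSO and SLC7A2 with abemaciclib, and in neither group did the libraries of the pair overlap. In the third DMSO library the pair was close, at 106.9 CPM for SLC7A1 and 104.8 CPM for SLC7A2.

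Of the alanine-serine-cysteine carriers, SLC1A4 was called lower and SLC1A5 was not called. SLC1A4 (ASCT1) was at 121.8, 126.2 and 149.3 CPM with DMSO and at 92.6, 73.8 and 82.1 CPM with abemaciclib. The groups did not overlap, with means of 132.5 ± 14.8 CPM and 82.8 ± 9.42 CPM (SD, n = 3 each) and a log2 fold change of -0.68 (SE 0.12). SLC1A5 (ASCT2), a main route of glutamine uptake in many tumour cells, was at 363.1, 296.2 and 294.4 CPM with DMSO and at 269.9, 232.9 and 304.5 CPM with abemaciclib. These groups overlapped, because the third abemaciclib library was above both of the lower DMSO libraries, and the gene was not called, with a log2 fold change of -0.24 (SE 0.11). Without that library its log2 fold change was -0.34 and it was called lower.

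The sodium-coupled carriers split in the same way. SLC38A1 (SNAT1), which takes up glutamine and other small neutral amino acids, was at 254.9, 298.2 and 240.8 CPM with DMSO and at 265.6, 276.6 and 271.8 CPM with abemaciclib. The abemaciclib libraries lay within the range of the DMSO libraries, and the log2 fold change was 0.04 (SE 0.10). SLC38A2 (SNAT2), whose transcription is known to respond to amino acid shortage, was at 69.9, 78.4 and 70.6 CPM with DMSO and at 46.9, 46.6 and 43.0 CPM with abemaciclib. Its groups did not overlap, with means of 73.0 ± 4.74 CPM and 45.5 ± 2.20 CPM (SD, n = 3 each) and a log2 fold change of -0.68 (SE 0.14). SLC38A2-AS1, the antisense gene of SLC38A2, had no counts in any library.

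**Figure D2:**
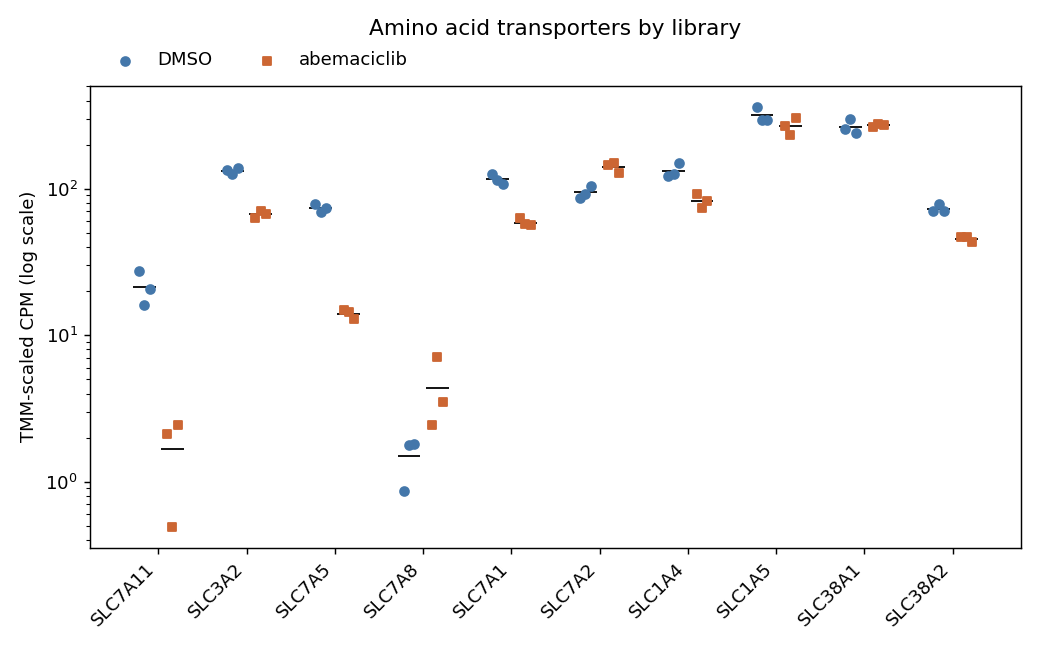
Level of each of the 10 transporters in each library, in CPM on a log axis (points, 3 DMSO and 3 abemaciclib libraries; horizontal lines are group means). SLC7A11 and SLC7A5 are furthest apart between the groups, SLC1A5 and SLC38A1 overlap, and SLC7A2 and SLC7A8 are the genes whose abemaciclib libraries all lie above the DMSO libraries.

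Of the 10 transporters, 9 had enough counts to be tested. Of these, 6 were called lower (SLC7A11, SLC7A5, SLC3A2, SLC7A1, SLC1A4 and SLC38A2) where 13.3% of all genes tested were, and 1 was called higher (SLC7A2) where 12.5% were. In the same 6 every abemaciclib library lay below every DMSO library, as for 20.1% of all genes tested, and in SLC7A2 every abemaciclib library lay above, as for 19.1%. The median log2 fold change of the 9 was -0.68, and that of all genes tested was -0.0018. Without the third abemaciclib library 1 was called higher and 7 lower, SLC1A5 being added, and the log2 fold changes were -4.08 for SLC7A11, -2.34 for SLC7A5, -0.99 for SLC3A2, -0.96 for SLC7A1, -0.67 for SLC1A4, -0.64 for SLC38A2 and 0.65 for SLC7A2. As the genes were picked with this contrast known, nothing is read from these counts. When calls were also held to a minimum size of 1 on the log2 scale, SLC7A11 and SLC7A5 passed as lower and none as higher. SLC3A2 and SLC7A1, each at -0.99, fell just short of it.

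**Figure D3:**
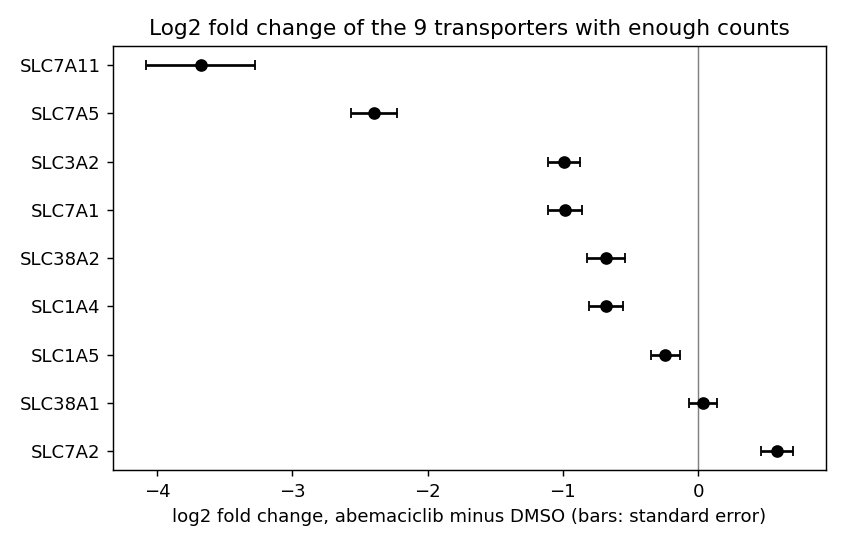
Log2 fold change (abemaciclib minus DMSO, 3 libraries each) of the 9 transporters with enough counts, with bars of 1 SE from edgeR's quasi-likelihood fit. The values run from -3.68 for SLC7A11 to 0.59 for SLC7A2.

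With DMSO the order of levels was SLC1A5, SLC38A1, SLC3A2, SLC1A4, SLC7A1, SLC7A2, SLC7A5, SLC38A2, SLC7A11 and SLC7A8, from high to low. Neighbours whose libraries overlapped were SLC1A5 with SLC38A1, SLC3A2 with SLC1A4, SLC1A4 with SLC7A1, and SLC7A5 with SLC38A2. With abemaciclib the order was SLC38A1, SLC1A5, SLC7A2, SLC1A4, SLC3A2, SLC7A1, SLC38A2, SLC7A5, SLC7A8 and SLC7A11, where SLC38A1 overlapped with SLC1A5 and SLC7A8 with SLC7A11. SLC7A2 thus moved up past SLC1A4, SLC3A2 and SLC7A1, and SLC7A11 passed to the last place. Summed over the 10 genes, the transporters took 1263, 1220 and 1202 CPM with DMSO and 965.1, 930.1 and 972.2 CPM with abemaciclib.

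On GRCh38, as annotated by GENCODE v44, the genes lie on 9 chromosomes. SLC7A11 (ENSG00000151012) is on the minus strand of chromosome 4 from 138164097 to 138242349, with 12 exons in its canonical transcript. SLC3A2 (ENSG00000168003) is on the plus strand of chromosome 11 from 62856004 to 62888880, SLC7A5 (ENSG00000103257) on the minus strand of chromosome 16 from 87830023 to 87869507, and SLC7A8 (ENSG00000092068) on the minus strand of chromosome 14 from 23125295 to 23183674. SLC7A1 (ENSG00000139514) is on the minus strand of chromosome 13 from 29509414 to 29595688, and SLC7A2 (ENSG00000003989) on the plus strand of chromosome 8 from 17497088 to 17570573. SLC1A4 (ENSG00000115902) is on the plus strand of chromosome 2 from 64988477 to 65023865, and SLC1A5 (ENSG00000105281) on the minus strand of chromosome 19 from 46774883 to 46788594. SLC38A1 (ENSG00000111371) and SLC38A2 (ENSG00000134294) are neighbours on the minus strand of chromosome 12, from 46183063 to 46270017 and from 46358188 to 46372773.

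The regulators and partners of the transporters were a list of 15 genes, written with earlier results of these data known and all tested. Of these 7 were lower, where 13.3% of all genes tested were, and 1 was higher, where 12.5% were, and their median was -0.42 on the log2 scale. ATF4, which activates many amino acid transporter genes, was at 169.4, 134.6 and 165.1 CPM with DMSO and at 52.9, 46.6 and 57.6 CPM with abemaciclib. It fell without overlap, by a log2 fold change of -1.58 (SE 0.13, edgeR adjusted p = 1.03e-10). Only RNA was measured, and whether ATF4 bears on the transporters or on other list genes was not tested. TRIB3, an ATF4 target that feeds back on it, fell from 62.9 ± 4.28 CPM to 21.1 ± 2.48 CPM (SD, n = 3 each), a log2 fold change of -1.57 (SE 0.17, edgeR adjusted p = 2.74e-08). DDIT3 (CHOP), a stress-induced partner of the C/EBP factors, fell from 12.2 ± 2.63 CPM to 2.66 ± 2.15 CPM, a log2 fold change of -2.22 (SE 0.45, edgeR adjusted p = 0.000426), and 63 of its last 500 exon bases lie opposite MARS1 on the other strand. DDIT3 passed the filter on low counts through its DMSO libraries. ATF3, CEBPB, CEBPG and CD44, a cell surface partner of SLC7A11, were also called lower. The call of CD44, at -1.18, was lost with DESeq2 (-1.18) and without the first DMSO library (-0.97), the third DMSO library (-1.10) or the third abemaciclib library (-0.98). The call of CEBPG, at -0.69, was lost without the first DMSO library (-0.60), and KEAP1 was called lower without the third DMSO library (-0.56). ATF5 was higher at a log2 fold change of 0.47 (SE 0.14, edgeR adjusted p = 0.0113), a call that was lost without the first DMSO library (0.37) or the first abemaciclib library (0.34). NFE2L2 at -0.12 and MYC at -0.19, both known activators of transporter genes, were not called.

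**Figure D4:**
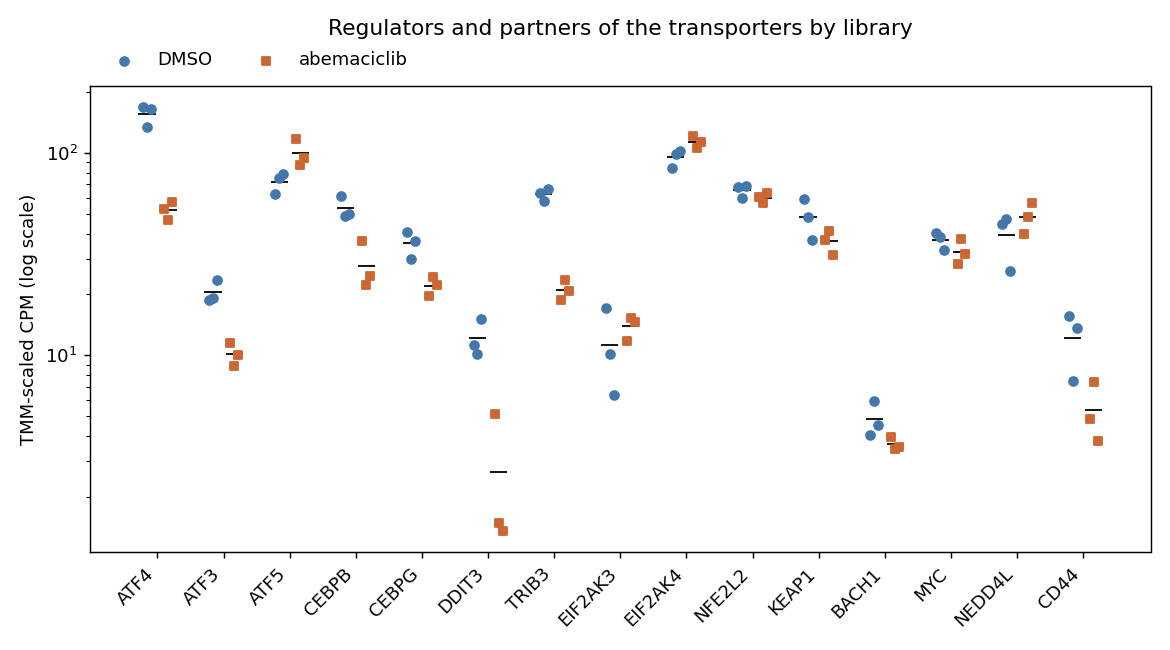
Level of the regulators and partners of the transporters in each library, in CPM on a log axis (points, 3 DMSO and 3 abemaciclib libraries; horizontal lines are group means). ATF4 and TRIB3 lie lower in every abemaciclib library, while NFE2L2 and MYC were not called.

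The RefSeq table of promoters, on GRCh38.p14 from 250 bases before to 50 after a start, held 17 promoters of 8 of the 10 transporters, with none for SLC7A11 or SLC7A2. They were searched on both strands for the C/EBP-ATF response element (TGATGNAAN), to which ATF4 binds with C/EBP factors, for the antioxidant response element (TGACNNNGC) and for the E-box (CACGTG). The C/EBP-ATF letters were found in 5 of the 8, namely SLC3A2, SLC7A1, SLC1A4, SLC1A5 and SLC38A1, and in 3.61% of all 35116 promoters, 1.76% of the 12507 promoters of tested genes and 2.36% of the 8589 tested genes with a promoter. Of these 5 genes, 3 were called lower and SLC1A5 and SLC38A1 were not called, while SLC7A5 and SLC38A2, also lower, held no match in this window. The antioxidant letters were in 4 of the 8 (SLC3A2, SLC7A5, SLC7A1 and SLC1A5), against 19.6% of the tested genes, and the E-box in 3 (SLC7A5, SLC7A8 and SLC1A5), against 13.1%. A match is a run of letters and not evidence of binding. The promoters of SLC3A2, SLC7A1, SLC1A4 and SLC38A1 are printed 5′ to 3′ on the gene's strand because they show the match in 3 genes that differed and 1 that did not. Capitals mark the match to TGATGNAAN, on the reverse strand in SLC3A2 and SLC1A4, so that the printed letters are the reverse complement. They lie at chr11:62881449-62881748 (plus), chr13:29595639-29595938 (minus), chr2:64989149-64989448 (plus) and chr12:46266467-46266766 (minus).
SLC3A2: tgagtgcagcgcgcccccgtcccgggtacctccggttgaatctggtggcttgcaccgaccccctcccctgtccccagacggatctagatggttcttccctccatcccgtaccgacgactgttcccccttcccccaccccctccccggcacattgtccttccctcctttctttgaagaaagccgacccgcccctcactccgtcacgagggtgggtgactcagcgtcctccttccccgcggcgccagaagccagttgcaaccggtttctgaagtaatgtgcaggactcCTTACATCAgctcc
SLC7A1: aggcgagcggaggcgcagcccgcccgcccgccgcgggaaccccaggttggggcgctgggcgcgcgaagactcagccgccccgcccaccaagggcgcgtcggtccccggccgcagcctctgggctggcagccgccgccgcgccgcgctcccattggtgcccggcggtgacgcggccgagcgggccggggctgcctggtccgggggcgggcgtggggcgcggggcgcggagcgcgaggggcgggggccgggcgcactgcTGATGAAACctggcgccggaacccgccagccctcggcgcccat
SLC1A4: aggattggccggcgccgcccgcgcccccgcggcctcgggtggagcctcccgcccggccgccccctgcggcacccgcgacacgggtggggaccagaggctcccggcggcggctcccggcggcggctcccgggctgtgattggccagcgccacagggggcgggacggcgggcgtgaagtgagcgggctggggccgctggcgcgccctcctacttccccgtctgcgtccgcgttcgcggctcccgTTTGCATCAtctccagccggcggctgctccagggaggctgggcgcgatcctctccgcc
SLC38A1: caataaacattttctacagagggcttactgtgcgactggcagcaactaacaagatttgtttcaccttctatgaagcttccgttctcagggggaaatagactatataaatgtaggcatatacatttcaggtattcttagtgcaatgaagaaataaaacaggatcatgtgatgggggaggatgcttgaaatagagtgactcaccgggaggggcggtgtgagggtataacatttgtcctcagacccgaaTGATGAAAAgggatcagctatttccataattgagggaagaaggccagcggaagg

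With the start base counted as 0, the match lay 36 to 44 bases after it in SLC3A2 and 7 to 15 bases after it in SLC7A1. In SLC1A4 it ran from position -8 to 0, in SLC38A1 from -4 to 4, and in SLC1A5, not printed, from -97 to -89. The table lists 3 starts for SLC3A2, 2 for SLC1A4, 3 for SLC1A5 and 2 for SLC38A1, of which 1 each held the match, and 1 start for SLC7A1.

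Of a list of 29 other plasma membrane amino acid transporters, 16 had no counts in any library, as had 40227 of all 60656 genes. In that list 6 were tested, with 1 higher and 0 lower by edgeR, where 12.5% and 13.3% of all genes tested were. Their median was 0.38 on the log2 scale, and 1 was lower at an unadjusted p under 0.05. DESeq2 also called 0 lower, and SLC6A6 was called higher without the second DMSO library (1.29). Of the further light chains of SLC3A2 in that list, SLC7A6 was at 22.3 CPM with DMSO and 29.9 CPM with abemaciclib and was not called, though all 3 abemaciclib libraries were above all 3 DMSO libraries, SLC7A7 had no counts, and SLC7A10 had 1 count in all. SLC43A2 (LAT4), a carrier of branched-chain amino acids that needs no heavy chain, rose from 71.6 ± 8.69 CPM to 141.4 ± 23.5 CPM (SD, n = 3 each), a log2 fold change of 0.98 (SE 0.13, edgeR adjusted p = 1.52e-06). Of 10 lysosomal transporters 7 were tested, and 1 was higher, where 12.5% of all genes tested were. It was MFSD12, which takes cysteine into lysosomes and melanosomes (0.53, SE 0.11, edgeR adjusted p = 0.000531). Its last exon bases overlap a long non-coding RNA on the opposite strand over 456 of 500. Of 12 mitochondrial carriers 9 were tested, and 1 was higher, again where 12.5% of all genes tested were. It was SFXN3, a serine carrier (0.82, SE 0.21, edgeR adjusted p = 0.00402). In both of these lists 0 genes were lower by edgeR, where 13.3% of all genes tested were. The number was also 0 at an unadjusted p under 0.05 and with DESeq2. Leaving out a library added calls, with SLC25A13 lower without the third DMSO library (-0.56), SFXN1 lower (-0.70) and SLC66A1 higher (0.99) without the third abemaciclib library, and SLC25A44 higher without the first abemaciclib library (0.51).

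A list from cystine to glutathione held 10 genes, among them enzymes that recycle or degrade glutathione. In it 7 were tested, with 3 lower and 1 higher, where 13.3% and 12.5% of all genes tested were. CHAC1, an enzyme that degrades glutathione, had 77, 81 and 62 counts with DMSO and 7, 3 and 3 counts with abemaciclib. It fell from 21.7 ± 2.69 CPM to 1.22 ± 0.776 CPM (SD, n = 3 each), a log2 fold change of -4.16 (SE 0.40, edgeR adjusted p = 3.05e-09), which is more negative than that of SLC7A11. Like SLC7A11, CHAC1 passed the filter on low counts through its DMSO libraries, and its list was written with earlier results of these data known. Its p-value and its place against SLC7A11 are therefore a description. TXNRD1, a thioredoxin reductase, fell by 0.58 on the log2 scale (SE 0.14, edgeR adjusted p = 0.00263). GSR, which regenerates reduced glutathione, was lower at -0.41 (SE 0.12, edgeR adjusted p = 0.015), and GSS, the second enzyme of glutathione synthesis, was higher at 0.59 (SE 0.19, edgeR adjusted p = 0.0216). The call of GSR was lost without the second or the third DMSO library or the first abemaciclib library, with values from -0.40 to -0.37, and that of GSS with DESeq2 (0.59) and without the first DMSO library (0.51), the second DMSO library (0.54) or the first abemaciclib library (0.44). GCLC and GCLM, the subunits of the first enzyme, were at -0.23 and -0.12 and not called, as was GPX4, which removes lipid peroxides, at 0.10. Without the third abemaciclib library GPX4 was called higher, at 0.27.

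Among 8 enzymes of glutamine, glutamate and asparagine, 7 were tested, with 1 higher and 1 lower, where 12.5% and 13.3% of all genes tested were. ASNS, not tested, had 2, 6 and 3 counts with DMSO and 0 in every abemaciclib library. A long non-coding RNA on the same strand shares 489 of its last 500 exon bases. GLUL, glutamine synthetase, rose from 116.3 ± 9.63 CPM to 185.0 ± 4.80 CPM (SD, n = 3 each), a log2 fold change of 0.67 (SE 0.11, edgeR adjusted p = 2.32e-05). GOT1 was lower at -0.59 (SE 0.21, edgeR adjusted p = 0.0374), with groups that overlapped, and the call was lost with DESeq2 (-0.58) and without the first DMSO library (-0.45), the third DMSO library (-0.52), the first abemaciclib library (-0.58) or the second abemaciclib library (-0.47). A list of 16 genes on the path from amino acid sensing to the growth kinase mTORC1 was all tested. In it 5 were higher and 2 lower, where 12.5% and 13.3% of all genes tested were. The list mixes genes of different roles, so these counts are not read as a direction of the pathway. FLCN was a further gene called higher without the third abemaciclib library (0.88). RRAGB rose by 1.89 on the log2 scale (SE 0.50, edgeR adjusted p = 0.00579) from 9, 5 and 5 counts with DMSO to 32, 21 and 24 with abemaciclib. RRAGB passed the filter on low counts through its abemaciclib libraries. CASTOR1, the arginine sensor, rose by 1.47 (SE 0.34, edgeR adjusted p = 0.00165), with 379 of its last 500 exon bases shared with a gene on the same strand, and LAMTOR3, a subunit of the lysosomal anchor, by 0.84 (SE 0.23, edgeR adjusted p = 0.00612). SESN2, a leucine sensor, fell by 0.58 on the log2 scale (SE 0.12, edgeR adjusted p = 0.000805). SESN1 fell by 1.69 on the log2 scale (SE 0.55, edgeR adjusted p = 0.0219), a call lost with DESeq2 (-1.70) and without the second DMSO library (-1.56), the third DMSO library (-1.59), the second abemaciclib library (-1.73) or the third abemaciclib library (-1.36). SESN1 passed the filter on low counts through its DMSO libraries.

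**Figure D5:**
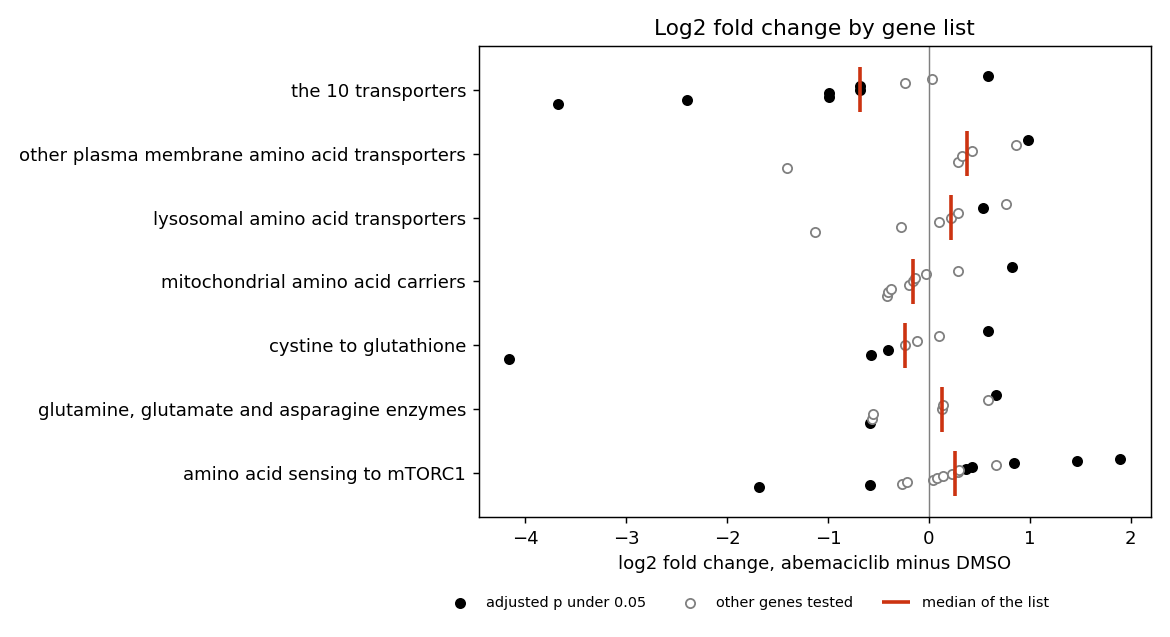
Log2 fold change (abemaciclib minus DMSO) of the tested genes of each list; filled points have an edgeR adjusted p under 0.05, open points do not, and red bars are list medians. The median is -0.68 for the transporters, which were chosen with this contrast known, and 0.38 for the other plasma membrane transporters.

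Of 9730 genes with a mean of at least 5 CPM, those whose centred log2 profile over the 6 libraries lay nearest to that of SLC7A11 were ARHGEF39, SPC24, MT2A, ZDHHC2 and DLGAP5, at Euclidean distances from 0.707 to 0.938. Their log2 fold changes ran from -3.68 for DLGAP5 to -3.08 for ARHGEF39. Values near that of SLC7A11 follow from the selection, since the profiles span both groups. MT2A was the most abundant of them, at 409.7 ± 11.7 CPM with DMSO and 45.1 ± 12.3 CPM with abemaciclib (SD, n = 3 each). By Pearson correlation the nearest were SRSF5, GSTO1, LINC01521, ROR2 and ETFB, and 0 genes were shared between the lists of 5.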

How the data were processed

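The authors sequenced 3′ mRNA libraries, trimmed (BBDuk) and mapped the reads to hg38 (STAR), assigned them to GENCODE v35 genes (featureCounts), and deposited the raw counts of 60656 genes with no filter; the submitters' processing notes give STAR 2.7.5b and featureCounts 2.0.1. The strand setting of the counting is not given in the sources used here. Symbols were matched for 60401 identifiers, and 40227 genes had no counts. Columns were assigned to the 3 DMSO and 3 abemaciclib libraries by name.

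Counts were tested with edgeR 4.0.16 under R 4.3.3 (low counts removed by filterByExpr, TMM scaling, glmQLFit and glmQLFTest on the group, two-sided, with Benjamini-Hochberg adjustment over the 10863 genes that passed) and, as an alternative, with DESeq2 1.42.0. The biological coefficient of variation was 13.2%. Other alternatives were DESeq2 size factors, total counts, no filter, at least 10 counts in every library, a replicate block, leaving out each library and a minimum log2 fold change of 1.

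The members and gene lists were chosen with earlier results of these data known, so the p-values of list genes are also a description. This holds too for CHAC1, DDIT3, SESN1 and RRAGB, which passed the filter on low counts through a single group. The text names all members and, per list, up to 3 genes with the largest rise and 3 with the largest fall among those called with at least 5 CPM in either group. For SLC7A11 it names the 5 nearest profiles. A few further list genes were named with their values in view. Coordinates and overlaps come from GENCODE v44 on the same assembly. Total counts of 3317860 to 4013156 limit the precision of low genes. Replicate pairs differed by more than sampling noise.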

Additional observations from a re-analysis of the deposited data

How the results depend on the processing

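With DESeq2, DESeq2 size factors, total counts or no filter on low counts, 1 transporter was called higher and 6 lower. Among all genes tested these settings called 1050 higher and 1155 lower, 1367 and 1432, 1266 and 1506, and 1335 and 1429, in that order. DESeq2 size factors and total counts kept the 10863 genes of the main fit, as did the replicate block and the minimum log2 fold change. The other fits selected the genes tested afresh, so their counts are not shares of the same total. DESeq2 and the edgeR fit with no filter also tested SLC7A8 and did not call it (adjusted p = 0.157 and 0.0926). Requiring 10 counts or more in each library left 1 transporter higher and 5 lower, and 1220 genes higher and 1278 lower among all tested. SLC7A11 was then not tested, nor were CHAC1, DDIT3, SESN1 and RRAGB. With a log2 fold change of at least 1 also required, 0 transporters were higher and 2 lower, and of all genes tested 322 were higher and 645 lower. Leaving out each library in turn gave 1 to 2 transporters higher (SLC7A8 was added without the first abemaciclib library, at 1.83) and 6 to 7 lower, and 981 to 1412 genes higher and 1132 to 1529 lower among all tested, the highest of both without the third abemaciclib library. SLC38A1 ranged from -0.028 to 0.13 over these fits and changed sign without the third DMSO library. With no filter, the median of the glutamine, glutamate and asparagine list turned to -0.21 and that of the other plasma membrane transporters to -1.02, since genes with few counts then entered. Libraries with the same replicate number did not deviate together, with correlations of -0.065, 0.0015 and -0.11. These values showed no pairing by number, but 3 libraries per group are too few to exclude it. With a replicate block, 1 transporter was higher and 6 lower, and 1139 genes higher and 1280 lower among all tested. SLC7A8 was called higher only in the fit without abemaciclib library 1, its lowest abemaciclib library at 8 counts. It passed the filter on low counts there through its remaining abemaciclib libraries (29 and 13 counts, against 3, 6 and 6 with DMSO). SLC7A8 was also tested without DMSO library 1, 2 or 3 and not called (edgeR adjusted p = 0.206, 0.114 and 0.0977). Its call at 1.83 is therefore a description. Genes with few counts, SLC7A8 among them, limit what can be called at this depth.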
